A study of Mus musculus with 14 samples.

Results

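The genes described here are a broad set of interferon-stimulated genes: antiviral effectors, RNA helicases, PARP and TRIM family members, enzymes of ISG15 conjugation, and membrane and signalling proteins that interferon is known to induce. The list holds 35 mouse genes. A probe set that the platform annotation assigns to a single gene existed for 34 of them, and Ifi44 had none. The 34 stand among 18193 genes with such a probe set. Where a gene had several, the one with the largest SD over the arrays was used, for these genes as for all others. Of the 34, 31 varied enough over the arrays to be tested together with the 11812 genes that passed the same filter, and Sp100, Ube2l6 and Epsti1 fell under it. That filter keeps genes that vary, so counts over the 31 leave out the flattest members.

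The samples were 14 dishes of SCp2 cells, an epithelial line from the mouse mammary gland, each measured on 1 Affymetrix array. Cells had been plated in 35 mm dishes and then kept for 3 days in DMEM with 2% fetal calf serum, either with MMP3 (stromelysin-1, a secreted protease that cleaves extracellular matrix and cell surface proteins) or as controls. In experiment A there were 3 MMP3 dishes and 3 control dishes, 1 of each at 50K, 100K and 250K cells plated. Experiment B had 4 MMP3 dishes and 4 control dishes, 1 of each at 25K, 50K, 100K and 250K. All groups are of this 1 cell line, and the labels name no genetic change in any of them. The labels do not call the dishes separate cultures, and the p-values therefore cover only the spread seen between dishes, which may be technical.

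Each probe set had been shifted so that its 14 log2 values have a median of 0. Only differences between arrays can be read from them, so levels of different genes are not compared and the presence of epithelial markers could not be checked. Log base 2 is assumed from the method of normalization. The array labelled MMP3 100K of experiment B stood apart: the SD over its probe sets was 0.869, against 0.232 to 0.412 on the other 13 arrays. For the actin control its shifted 3′ value less its shifted 5′ value was 0.65, against -0.34 to 0.19 on the others. As each probe set was shifted, such a value tells how arrays differ, not by how much 3′ signal exceeds 5′ signal. In experiment B several arrays also did not follow their labels in these genes, as described below, and all arrays are called by their deposited labels.

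Interferons bind receptors at the cell surface and, through the kinases JAK1 and TYK2, activate transcription factors in the cell. A complex that holds STAT2 and IRF9 binds a DNA element called ISRE (interferon-stimulated response element), and a second kind of element is called GAS. Genes switched on this way make proteins that degrade or edit viral RNA, block translation, hold back virus particles or tune the signal itself. Epithelial cells are known to carry the whole pathway.

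The members differed widely in how much they varied. A range of at least 2 on the log2 scale between the highest and the lowest of the 14 arrays was called strong, and a range under 1 weak. By this split 25 of the 34 varied strongly, 5 were intermediate and 4 were weak. Among all 18193 genes 18.4% reached a range of 2 and 57.5% stayed under 1. The largest ranges were those of Rtp4 (9.25), which encodes a chaperone of membrane receptors, and of Xaf1 (7.08), which encodes an antagonist of the apoptosis inhibitor XIAP. Next came Ifi27l2a (6.53), Rsad2 (6.37), Bst2 (6.23), Parp14 (5.45), Parp9 (5.32) and Ddx60 (5.18). Isg20 (2.01) was the last strong member and Trafd1 (1.94) the first intermediate one, followed by Zbp1, Ly6e, Ifi47 and Mx1 (1.31). The weak members were Uba7 (0.45), Sp100 (0.21), Ube2l6 (0.12) and Epsti1 (0.11), well apart from Mx1. The split uses the values themselves and is a description. For some members the array labelled MMP3 100K of B set the low end. Without it the range was 2.37 for Herc6 (4.96 with it), 2.84 for Eif2ak2 (4.86 with it) and 1.67 for Adar (3.14 with it), and 24 members kept a range of at least 2, against 8.78% of all genes.

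**Figure D1:**
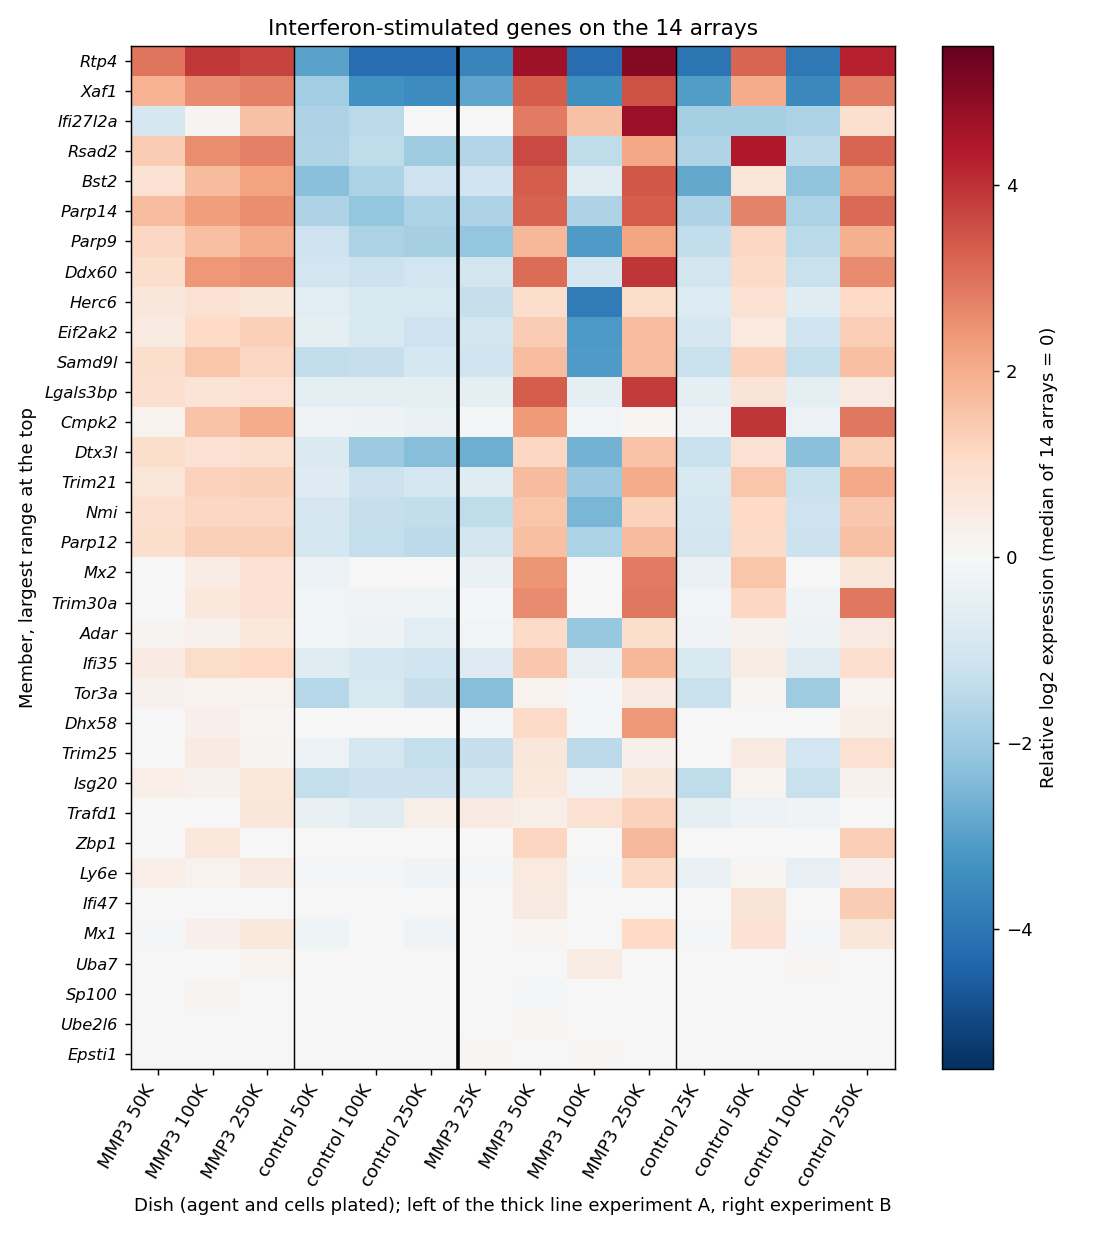
Relative log2 expression (colour, median of the 14 arrays at 0) of the 34 members with a probe set, in rows by falling range, on each array in columns, with experiment A left of the thick line. In experiment A the MMP3 dishes are high and the control dishes low, in experiment B the 50K and 250K dishes of both agents are high for most members, and the bottom 4 rows, from Uba7 to Epsti1, stay near 0.

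Since many members moved together, their promoters were searched for the elements named above, and a minority held them exactly. Windows from 250 bases before to 50 after the gene start were taken from RefSeq on GRCm38.p6 and were at hand for 25 of the 35 listed genes. They were searched on both strands for the ISRE-like motif GAAANNGAAA, where N is any base. It was found in 6 of the 25, all of them strongly varying members (6 of 18 strong members with a window, 0 of 2 intermediate and 0 of 4 weak), against 3.44% of all 32851 windows and 3.99% of 27025 genes. A match is a description of letters, not a binding site. The windows of the 6 follow, 5′ to 3′ on the strand of the gene, with the matches in capitals.
Trim30a, chr7:104446076-104446375, minus strand: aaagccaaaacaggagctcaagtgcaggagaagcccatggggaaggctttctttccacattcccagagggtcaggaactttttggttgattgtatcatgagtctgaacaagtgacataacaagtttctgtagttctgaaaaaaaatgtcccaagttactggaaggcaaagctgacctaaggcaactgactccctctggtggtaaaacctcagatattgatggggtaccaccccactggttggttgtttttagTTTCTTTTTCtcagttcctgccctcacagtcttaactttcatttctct
Trim21, chr7:102565433-102565732, minus strand: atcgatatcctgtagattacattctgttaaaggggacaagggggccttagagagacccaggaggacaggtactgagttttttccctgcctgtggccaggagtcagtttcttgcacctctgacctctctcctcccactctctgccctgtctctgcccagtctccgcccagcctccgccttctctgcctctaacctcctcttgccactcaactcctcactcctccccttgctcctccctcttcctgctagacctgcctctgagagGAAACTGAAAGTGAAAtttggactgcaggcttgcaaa
Ddx60, chr8:61927837-61928136, plus strand: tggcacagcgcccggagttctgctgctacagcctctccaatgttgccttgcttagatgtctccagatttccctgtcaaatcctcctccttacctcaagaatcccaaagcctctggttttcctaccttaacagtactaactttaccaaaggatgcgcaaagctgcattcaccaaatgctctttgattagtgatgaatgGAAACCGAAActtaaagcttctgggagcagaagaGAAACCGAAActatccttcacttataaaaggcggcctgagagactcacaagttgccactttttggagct
Eif2ak2, chr17:78882523-78882822, minus strand: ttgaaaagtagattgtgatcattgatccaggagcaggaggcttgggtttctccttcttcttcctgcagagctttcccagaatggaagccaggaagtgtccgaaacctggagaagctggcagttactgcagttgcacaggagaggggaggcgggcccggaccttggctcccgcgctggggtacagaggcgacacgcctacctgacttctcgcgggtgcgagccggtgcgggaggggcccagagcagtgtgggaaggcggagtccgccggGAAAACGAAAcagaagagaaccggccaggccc
Rsad2, chr12:26456403-26456702, minus strand: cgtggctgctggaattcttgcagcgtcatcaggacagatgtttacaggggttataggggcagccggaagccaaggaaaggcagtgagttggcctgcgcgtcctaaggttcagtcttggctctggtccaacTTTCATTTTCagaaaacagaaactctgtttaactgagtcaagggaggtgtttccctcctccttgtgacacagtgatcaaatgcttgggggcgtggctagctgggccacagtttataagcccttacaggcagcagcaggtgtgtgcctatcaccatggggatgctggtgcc
Bst2, chr8:71537423-71537722, minus strand: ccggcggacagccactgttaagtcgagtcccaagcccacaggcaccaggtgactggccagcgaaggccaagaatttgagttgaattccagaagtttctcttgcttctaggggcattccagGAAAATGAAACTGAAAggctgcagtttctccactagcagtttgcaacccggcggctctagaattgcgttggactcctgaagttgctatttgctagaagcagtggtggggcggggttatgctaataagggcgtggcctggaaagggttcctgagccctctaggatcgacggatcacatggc
The first letter of the match nearest to the start lay at position 3 in Trim30a, 14 in Trim21, 19 in Eif2ak2, -19 in Ddx60, -120 in Rsad2 and -124 in Bst2, counted with 1 as the first transcribed base and -1 as the base before it. Trim21, Ddx60 and Bst2 held 2 matches each, which overlap in Trim21 and Bst2.

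For contrast, the windows of 2 weakly varying members held no match.
Epsti1, chr14:77903989-77904288, plus strand: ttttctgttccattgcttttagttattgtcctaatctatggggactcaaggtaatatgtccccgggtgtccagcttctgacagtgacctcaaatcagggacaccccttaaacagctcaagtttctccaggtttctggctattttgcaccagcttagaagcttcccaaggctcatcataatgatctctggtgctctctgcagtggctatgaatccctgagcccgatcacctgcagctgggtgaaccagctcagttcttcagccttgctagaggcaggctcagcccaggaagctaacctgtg
Sp100, chr1:85649738-85650037, plus strand: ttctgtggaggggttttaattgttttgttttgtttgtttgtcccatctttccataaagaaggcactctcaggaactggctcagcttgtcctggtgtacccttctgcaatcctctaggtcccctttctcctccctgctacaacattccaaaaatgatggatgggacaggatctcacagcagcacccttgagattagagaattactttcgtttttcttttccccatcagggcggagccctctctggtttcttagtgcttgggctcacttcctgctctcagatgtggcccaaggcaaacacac
With 1 mismatch allowed in the 8 fixed places, 21 of the 25 listed genes had a match, against 35.4% of all windows and 38.9% of genes, and these included 16 of the 18 strong and 3 of the 4 weak members. The GAS-like motif TTCNNNGAA, which reads alike on both strands, was found in 5 of the 25, Adar, Bst2, Eif2ak2, Ifi35 and Isg20, against 8.3% of all windows and 9.55% of genes.

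Experiment A was taken first, a choice made with earlier results of these data known, in which its arrays followed their labels. There 25 of the 31 tested members were higher in MMP3 dishes than in control dishes at an adjusted p under 0.05 with limma, and 0 were lower. Over all genes tested 14.5% were called higher and 10.5% lower, 25.1% in all. The median log2 difference was 1.54 over the tested members and -0.02 over all genes. The MMP3 and control arrays did not overlap, with MMP3 higher, for 24 of the 31 (19.5% of all genes), and MMP3 was above control in 3 of 3 pairs for 29 of them (28% of all genes). The fit left 2 residual degrees of freedom, and after removal of any single one of the 6 arrays, which leaves 1 such degree, 0 members and 0 genes were called. With the spread estimated from all 14 arrays the counts were also 0 and 0. With each pair of dishes of the same density as a block, 17 members and 1908 genes were called. The calls lost with that block were those of Ifi27l2a, Mx2, Trim25, Trim30a, Eif2ak2, Adar, Cmpk2 and Ly6e, at adjusted p-values of 0.0505 (Ifi27l2a) to 0.145 (Trim30a) with limma, so what is said below of a rise in these 8 holds for the fit without the block. In whole-dish RNA fewer cells of a kind and less RNA per cell cannot be told apart. For Gapdh the shifted 3′ value less the shifted 5′ value was 0.04 to 0.17 on the MMP3 arrays of this experiment. On its control arrays it was -0.03 to 0.03, and the part of this in the result was not tested.

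**Figure D2:**
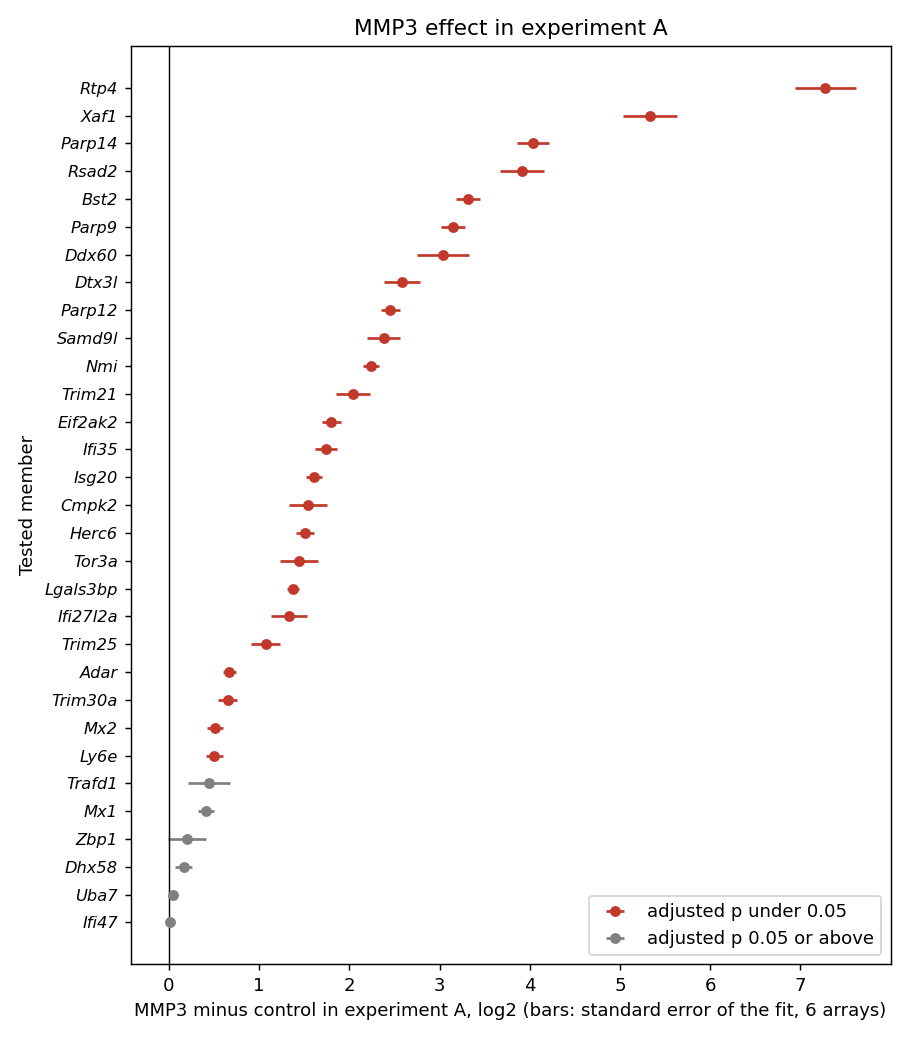
MMP3 minus control in experiment A (log2, horizontal axis) for the 31 tested members in rows, with the standard error of the fit to 6 arrays as a bar and red points for an adjusted p under 0.05. The 25 called members run from Rtp4 at 7.28 to Ly6e at 0.50, and the 6 grey members from Trafd1 at 0.45 to Ifi47 at 0.01.

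All 5 members of the membrane, mitochondrial and chaperone group rose, with a median of 1.38. Rtp4 was at 2.94, 3.88 and 3.70 on the MMP3 arrays at 50K, 100K and 250K, against -2.94, -4.18 and -4.19 on the control arrays. The groups lay far apart, with a spread of 0.94 among the MMP3 arrays and 1.25 among the controls. Its difference was 7.28 (SE 0.34, adjusted p = 0.0122, limma), a 155-fold rise. Ifi27l2a, a small hydrophobic interferon-induced protein, was at -0.92, 0.14 and 1.60 on the MMP3 arrays, against -1.70, -1.50 and 0.02 on the controls. The groups overlapped, with the 250K dish highest in both, but each MMP3 dish was above its own control. The fitted difference was 1.33 (SE 0.20, adjusted p = 0.0300, limma). Of the others, Tor3a, a torsin-type ATPase, rose by 1.45 (SE 0.21). Lgals3bp, a secreted glycoprotein that binds galectins, rose by 1.38 (SE 0.07), and Ly6e, an anchored surface protein, by 0.50 (SE 0.10). The Ly6e probe set is of a kind that may match several transcripts. The other probe set of Ly6e differed by -0.13 and was higher in 0 of 3 pairs, and with the mean of both the call was lost, at 0.19 (adjusted p = 0.0504, limma).

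Of the 11 antiviral effectors 8 rose, with a median of 1.54. Rsad2 encodes viperin, which makes a nucleotide that stops viral RNA synthesis. It was at 1.41, 2.56 and 2.78 on the MMP3 arrays at 50K, 100K and 250K, against -1.64, -1.41 and -1.96 on the controls, and the groups did not overlap. The difference was 3.92 (SE 0.25, adjusted p = 0.0133, limma), 15.1-fold. Bst2 encodes tetherin, which holds budding virus particles at the cell surface. It was at 0.82, 1.75 and 2.21 on the MMP3 arrays, against -2.31, -1.72 and -1.13 on the controls. Bst2 was higher at each higher density in both groups, which stayed apart, with a difference of 3.32 (SE 0.13, adjusted p = 0.0122, limma).

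Further effectors that rose were Samd9l (2.38, SE 0.18), a restrictor of viral translation, Eif2ak2 (1.80, SE 0.10), the RNA-activated kinase PKR, Isg20 (1.61, SE 0.09), an RNA exonuclease, and Cmpk2 (1.54, SE 0.21), a mitochondrial nucleotide kinase. The RNA-editing enzyme Adar rose by 0.67 (SE 0.07). Of the dynamin-like GTPases Mx1 and Mx2, Mx2 rose by 0.51 (SE 0.09, adjusted p = 0.0367, limma), while Mx1 did not pass, with a difference of 0.41 (SE 0.09, adjusted p = 0.0520, limma). Zbp1, a sensor of left-handed nucleic acids, differed by 0.20 (SE 0.21) and Ifi47, an immunity-related GTPase, by 0.01 (SE 0.05), and neither passed.

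The PARP group rose in 4 of 4 cases, with the largest median of the role groups, 2.87. Parp14, an ADP-ribosyltransferase, was at 1.70, 2.30 and 2.54 on the MMP3 arrays, against -1.71, -2.13 and -1.73 on the controls. The groups were apart by more than the spread of either, at 4.04 (SE 0.18, adjusted p = 0.0122, limma). Parp9, which acts as a partner of the ubiquitin ligase DTX3L, was at 1.12, 1.64 and 2.02 on the MMP3 arrays, against -1.12, -1.74 and -1.82 on the controls, and differed by 3.15 (SE 0.13). Dtx3l itself rose by 2.59 (SE 0.20) and Parp12 by 2.45 (SE 0.11). In the RefSeq annotation (GRCm38.p6) Parp9, Dtx3l and Parp14 lie next to each other, with 0 protein-coding genes between Dtx3l and either of the others.

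Among the RNA helicases Ddx60 rose and Dhx58 did not pass. Ddx60, a helicase tied to sensing of viral RNA, was at 0.96, 2.40 and 2.50 on the MMP3 arrays, against -1.04, -1.18 and -1.04 on the controls. The controls of Ddx60 stayed within 0.14 of each other while its MMP3 arrays spread over 1.54, and the difference was 3.04 (SE 0.29, adjusted p = 0.0173, limma). Dhx58, which encodes LGP2, an RNA sensor of the RIG-I family, differed by 0.16 (SE 0.09, adjusted p = 0.287, limma).

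The signalling partners and the TRIM genes mostly rose. Xaf1 was at 1.90, 2.59 and 2.79 on the MMP3 arrays, against -1.90, -3.34 and -3.47 on the controls. The gap between the nearest arrays of the groups was 3.81 at 50K, and the fitted difference was 5.33 (SE 0.30, adjusted p = 0.0125, limma), 40.3-fold. Nmi and Ifi35, which bind each other, rose by 2.24 (SE 0.09) and 1.74 (SE 0.12). Trafd1, a feedback inhibitor of innate signalling, did not pass here, with a difference of 0.45 (SE 0.23, adjusted p = 0.245, limma). The ubiquitin ligases Trim21, also a cytosolic antibody receptor, Trim25, an activator of RIG-I signalling, and Trim30a rose by 2.04 (SE 0.19), 1.07 (SE 0.16) and 0.65 (SE 0.10). The other probe set of Trim30a differed by 0.22 and was higher in 2 of 3 pairs. With the mean of both the Trim30a call was lost, at 0.44 (adjusted p = 0.146, limma).

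In the ISG15 conjugation group the ligase rose and the enzymes before it hardly varied. ISG15 is a ubiquitin-like protein that the activating enzyme Uba7, the carrier Ube2l6 and, in mouse, the ligase Herc6 attach to other proteins. Herc6 rose by 1.51 (SE 0.10, adjusted p = 0.0133, limma). Uba7 was at -0.03, 0.01 and 0.18 on the MMP3 arrays, against 0.02, 0.00 and -0.01 on the controls, and differed by 0.05 (SE 0.05, adjusted p = 0.540, limma). In experiment B Uba7 was at 0.02, -0.02, 0.43 and -0.01 on the MMP3 arrays at 25K, 50K, 100K and 250K, against 0.00, -0.02, 0.05 and -0.02 on the controls, so that it left 0 mainly on the array that stood apart. Ube2l6 lay under the filter, with values of -0.01 to 0.02 on the MMP3 arrays and -0.01 to 0.01 on the controls of experiment A. With no absolute level, a gene that is silent and a gene that is steady look alike in this table.

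In experiment B the same comparison gave 0 called members and 0 called genes (0%) with limma. That fit holds a straight slope on density, so the alternation with density described below enters its spread. Rtp4, for example, had an SE of 3.07 while its pairs differed by -0.25 to 1.46. The 0 calls therefore do not show that the agents were alike. At an unadjusted p under 0.05 there were 1373 genes and 2 members, Trafd1 and Ifi27l2a. The median difference over the 31 tested members was 0.19, with 18 positive and 13 negative, and 0.73 with 27 positive when the array labelled MMP3 100K was left out, which also gave 0 calls. Trafd1 was the only member whose MMP3 and control arrays did not overlap with MMP3 higher (5.2% of all genes). MMP3 was above control in 4 of 4 pairs for 12 members (17.7% of all genes), and in 3 of 3 for 16 (26.5%) with the 100K pair left out.

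**Figure D3:**
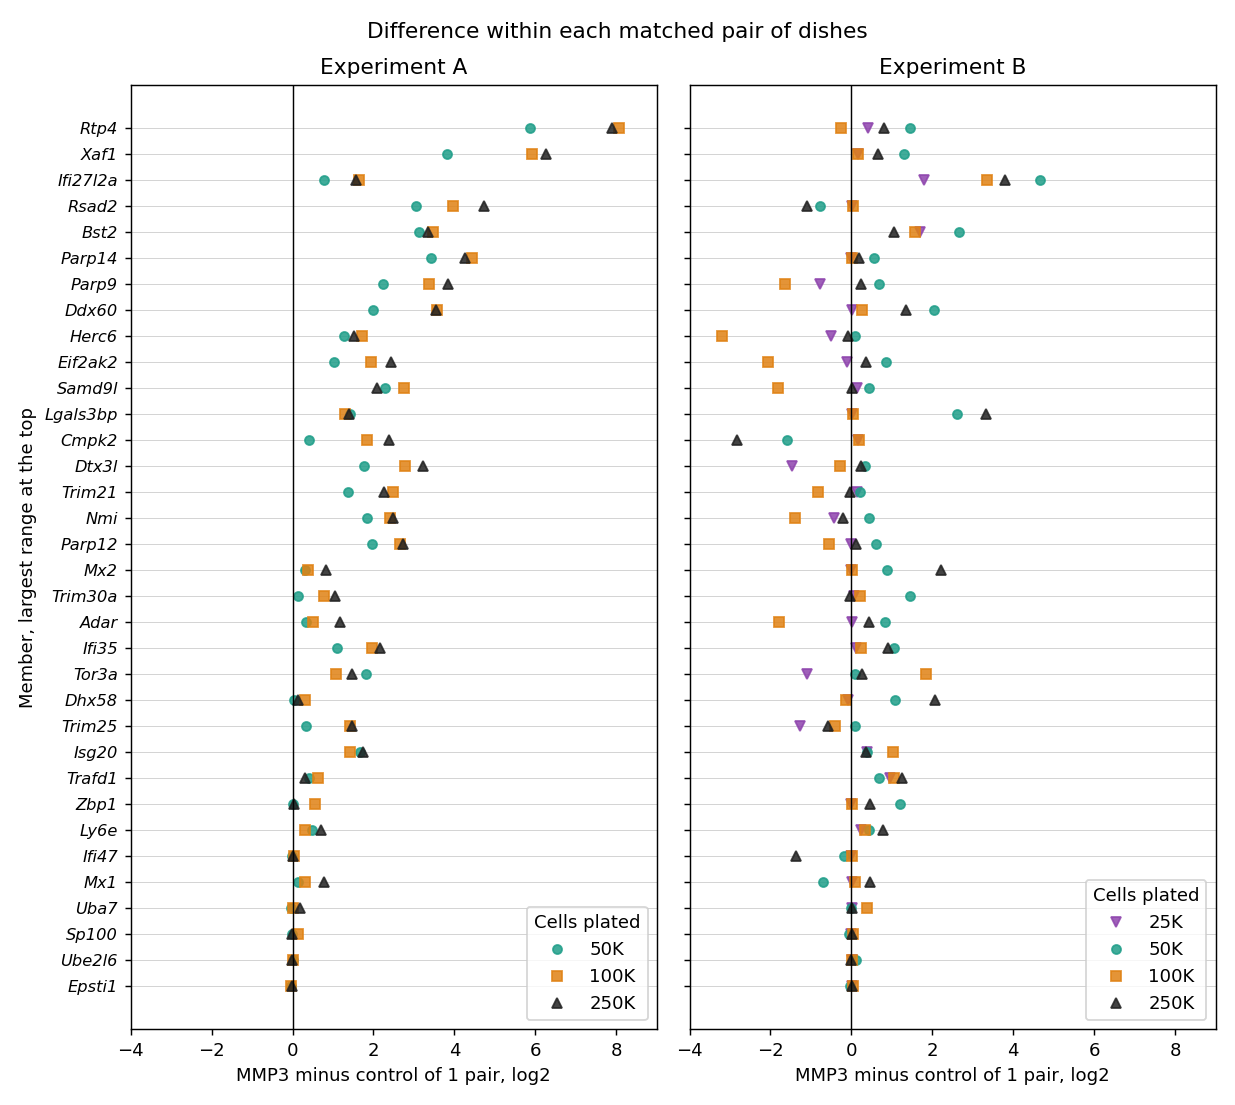
MMP3 minus control (log2, horizontal axis) within each pair of dishes of the same density, 1 point per pair, for the 34 members in rows, with experiment A on the left and experiment B on the right. The 3 pairs of experiment A lie to the right of 0 for 29 of the 31 tested members, while in experiment B the pairs straddle 0 for most members, with Herc6 at -3.20 in the 100K pair and Ifi27l2a at 4.67 in the 50K pair.

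Most members in experiment B were split by density rather than by agent. Rtp4 was at -3.62, 4.66, -4.18 and 5.06 on the MMP3 arrays at 25K, 50K, 100K and 250K, against -4.03, 3.20, -3.92 and 4.27 on the controls. Both agents were thus high at 50K and 250K and low at 25K and 100K, and the pairs differed by -0.25 to 1.46. Parp14 was at -1.72, 3.26, -1.70 and 3.32 on the MMP3 arrays, against -1.72, 2.71, -1.72 and 3.13 on the controls. Xaf1 was at -2.90, 3.34, -3.39 and 3.52 on the MMP3 arrays, against -3.07, 2.03, -3.55 and 2.87 on the controls. These 2 genes, like Rtp4, had 50K and 250K on top in both agents.

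The pattern was shared by most of the set. Both 50K dishes were above both 25K dishes for 27 of 31 tested members (24.1% of all genes) and below them for 1 (32.9%). Both 100K dishes were below both 50K dishes for 26 (25.2% of all genes) and above them for 1 (31.2%). Both 250K dishes were above both 100K dishes for 28 (21.5% of all genes) and below them for 1 (25.9%). With the array labelled MMP3 100K left out the counts for 100K below 50K and 250K above 100K were 27 (35.2%) and 30 (31.5%). By array, the median over the 31 tested members was -0.998, 1.54, -0.64 and 1.74 on the MMP3 arrays at 25K, 50K, 100K and 250K, against -0.84, 0.78, -1.08 and 1.34 on the controls. Uba7 went the other way at each step, by small amounts apart from 0.43 on that array, and Ifi27l2a and Trafd1 were among the exceptions at all of them.

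Of 6 tested epithelial markers 4 followed the same alternation. The single steps of this order were met by 24.1%, 25.2% and 21.5% of all genes, and the share meeting all of them was not counted. Ocln, a tight junction protein, was at -0.85, 1.22, -2.09 and 1.32 on the MMP3 arrays at 25K, 50K, 100K and 250K, against -1.38, 1.01, -1.47 and 1.05 on the controls. Epcam, an epithelial adhesion protein, was at -0.45, 0.66, -0.43 and 0.43 on the MMP3 arrays, against -0.46, 0.64, -0.63 and 0.64 on the controls. Cdh1 and Cldn4 were likewise high at 50K and 250K and low at 25K and 100K in both agents, while Krt5 and Krt14 did not follow this order. The part of these markers in the pattern was not tested.

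Other members were high in fewer of these dishes. Mx2 was at -0.36, 2.42, 0.00 and 2.85 on the MMP3 arrays at 25K, 50K, 100K and 250K, against -0.36, 1.54, -0.01 and 0.62 on the controls. Zbp1 was at -0.02, 1.19, 0.00 and 1.80 on the MMP3 arrays, against -0.01, -0.01, -0.02 and 1.34 on the controls. Zbp1 thus lay near its median except in 3 dishes, all at 50K or 250K. Ifi47 was at 0.00, 0.50, 0.01 and 0.04 on the MMP3 arrays, against 0.00, 0.69, -0.01 and 1.40 on the controls, so that its highest dishes were controls. Dhx58, by contrast, was at -0.10, 1.03, -0.12 and 2.38 on the MMP3 arrays, against -0.02, -0.04, 0.02 and 0.32 on the controls. Its range of 2.49 came almost entirely from 2 MMP3 dishes of this experiment. That range rests on 1 of 3 probe sets of Dhx58. The others had ranges of 0.15 and 0.04, and with the mean of all it was 0.81. The second probe set of Zbp1 had a range of 0.11.

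In experiment A the level of some members differed between densities within an agent, with 1 dish each and 0 members called for density. Bst2, as given above, was higher at each step in both agents, and Ddx60 was at 0.96, 2.40 and 2.50 at 50K, 100K and 250K on the MMP3 arrays alone. Cmpk2 was at 0.19, 1.56 and 2.05 on the MMP3 arrays, against -0.20, -0.29 and -0.34 on the controls. The order of both dishes at one density against both at the next could not be met by the 24 members whose MMP3 and control arrays did not overlap, so it bears on the other 7 only. Both 100K dishes were above both 50K dishes for Mx1, Mx2, Zbp1 and Ifi47 (4 of 31, against 6.77% of all genes), and below them for 0 (7.26%). The nearest dishes at 100K and 50K were close, at 0.0003 and -0.0004 for Ifi47 and 0.025 and 0.0036 for Zbp1. For Mx2 they were at -0.0019 and -0.0172, and for Mx1 at -0.0419 and -0.0883, so these orders rest on small differences. Both 250K dishes were above both 100K dishes for Trafd1 alone (13.6% of all genes) and below them for Zbp1 and Ifi47 (19.7%). For these last 2 the nearest dishes at 250K and 100K were at 0.0236 and 0.025 (Zbp1) and at -0.0087 and 0.0003 (Ifi47). A straight slope of expression on log2 density is a poor summary of a pattern that alternates, and 0 members and 0 genes (0%) were called for it with limma in either experiment or over all arrays. At an unadjusted p under 0.05 the slope in experiment A had 6 of 31 tested members and 3506 of 11812 genes. The share of the members was thus below that of all genes. Per doubling of cells the 6 were Ifi27l2a at 0.92, Bst2 at 0.55, Cmpk2 at 0.36, Mx2 at 0.24, Mx1 at 0.14 and Dtx3l at -0.34. In experiment B 2 members and 470 genes reached that p. The slope over all arrays had 5 members and 1358 genes at that p. Its median per doubling of cells was 0.34 over the tested members and 0.0013 over all genes. The 250K dishes of experiment B, high in both agents for most members, enter this slope. The interaction of agent and density also had 0 calls (0%), with 0 members and 228 genes at an unadjusted p under 0.05.

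**Figure D4:**
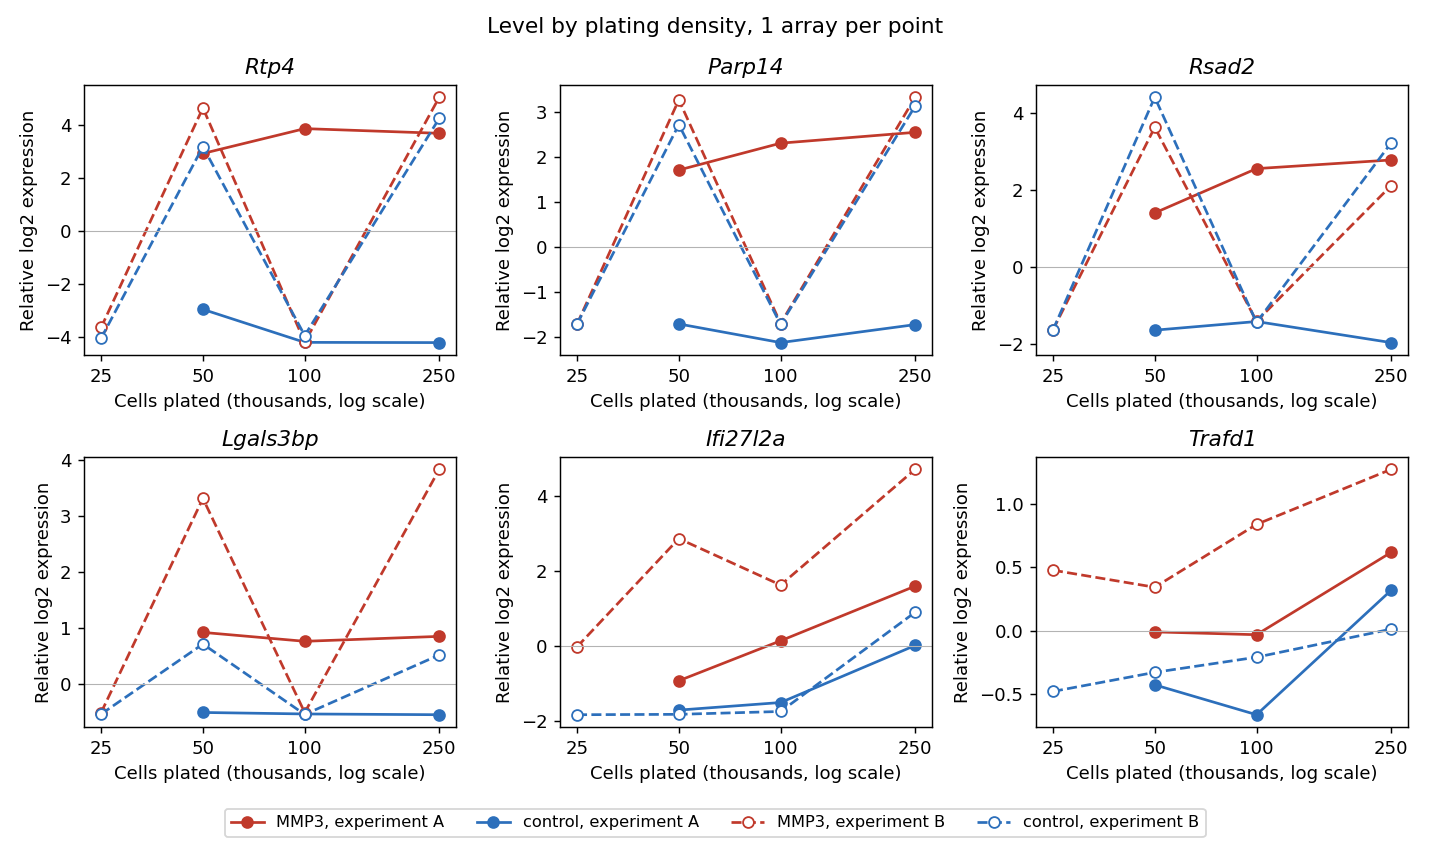
Relative log2 expression (vertical axis) against cells plated (K as in the labels, log scale) for 6 members, with MMP3 in red, control in blue, experiment A as filled points and solid lines, experiment B as open points and dashed lines, and 1 array per point. Rtp4, Parp14 and Rsad2 alternate with density in both agents of experiment B, Lgals3bp reaches 3.31 and 3.83 in the MMP3 dishes only, and Ifi27l2a and Trafd1 keep MMP3 above control at each density.

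The same label gave different values in the 2 experiments. For control 250K, experiment B minus experiment A had a median of 2.14 over the 31 tested members, and 24 of them were higher by at least 1, against 9.76% of all genes. For control 50K the median was 1.50, with 22 higher by at least 1 (6.76% of all genes). For MMP3 100K it was -1.89, with 19 lower by at least 1 (21.5% of all genes), which rests on the array that stood apart. For MMP3 50K the median was 0.91, with 30 of 31 higher and 15 higher by at least 1 (1.74% of all genes). For MMP3 250K it was 0.56, with 9 higher by at least 1 (2.44% of all genes). Only control 100K was close, with a median of -0.01 and 0 higher by at least 1 (0.533% of all genes). The MMP3 effect differed between the experiments by a median of -1.37 (B minus A), with 23 of 31 tested members negative. At the densities both used, limma called 0 members and 0 genes (0%) for this difference, with 1 member, Ifi27l2a, and 1286 genes at an unadjusted p under 0.05.

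Although 0 passed in experiment B, some members differed clearly between the agents in single pairs, and not all in one direction. Bst2 was at -1.11, 3.31, -0.64 and 3.43 on the MMP3 arrays at 25K, 50K, 100K and 250K, against -2.80, 0.64, -2.22 and 2.39 on the controls. It followed the alternation and was also higher with MMP3 in each pair, by 1.05 to 2.66. Lgals3bp was at -0.52, 3.31, -0.52 and 3.83 on the MMP3 arrays, against -0.54, 0.71, -0.55 and 0.51 on the controls. Its large differences, 2.60 and 3.32, were in the 50K and 250K pairs, and the other pairs differed by 0.03 each. Ddx60 was at -1.002, 3.09, -0.96 and 3.94 on the MMP3 arrays, against -1.01, 1.06, -1.23 and 2.60 on the controls, a like pattern.

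On the probe sets used, Rsad2 and Cmpk2 ran the other way in the pairs where they were high. Rsad2 was at -1.63, 3.63, -1.41 and 2.11 on the MMP3 arrays, against -1.63, 4.41, -1.44 and 3.22 on the controls. Cmpk2 was at -0.09, 2.34, -0.14 and 0.09 on the MMP3 arrays, against -0.26, 3.92, -0.32 and 2.91 on the controls. At 250K the MMP3 dish was thus lower than its control by 1.11 in Rsad2 and by 2.81 in Cmpk2, while both had risen with MMP3 in experiment A. The 2 genes are neighbours in the RefSeq annotation, with 0 protein-coding genes between them. The effect in B was -0.46 (SE 2.00) for Rsad2 and -1.01 (SE 1.25) for Cmpk2, and neither passed with limma. Of the other Rsad2 probe sets, 1 differed by -0.52 in B and was higher with MMP3 in 1 of 4 pairs. The other differed by 0.05 and was higher in 3 of 4. The second probe set of Cmpk2 had a range of 0.07 and differed by 0.00.

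Parp9 and several others were lowest on the array labelled MMP3 100K. Parp9 was at -2.12, 1.83, -3.13 and 2.18 on the MMP3 arrays, against -1.34, 1.14, -1.48 and 1.95 on the controls. The array was the lowest of the 14 for 10 of the 31 tested members, with Herc6 at -3.85, Eif2ak2 at -3.15 and Samd9l at -3.12. It had the largest SD over probe sets, 0.869, and the share of all genes lowest there was not counted. This count is therefore not read as a trait of the members. Other probe sets of these genes differed in this. Those of Herc6 were at -0.95, -0.62 and -0.64 there, and those of Eif2ak2 at -2.18 and -0.90. The other probe set of Trim21 was at 0.01, against -2.04 on the one used, and those of Adar were at 0.01 and -0.94, against -2.08. Of these others, 1 of Eif2ak2, 1 of Adar and 1 of Herc6 (at -0.62) were lower on this array than on the other 13. The second probe set of Dtx3l was also lowest there, at -2.52. At the other end the array labelled MMP3 250K of experiment B was the highest of the 14 for 20 members. The share of all genes highest on that array was likewise not counted.

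A fit to all 14 arrays, in which experiment was a block, called 2 members higher with MMP3 and 0 lower. Over all genes it called 1.34% higher and 1.41% lower, 2.75% in all. Ifi27l2a in experiment B was at -0.02, 2.86, 1.63 and 4.70 on the MMP3 arrays at 25K, 50K, 100K and 250K, against -1.82, -1.81, -1.74 and 0.90 on the controls. Each MMP3 dish was above its control, by 1.80 to 4.67, and the groups overlapped only through control 250K. Over all arrays Ifi27l2a differed by 2.52 (SE 0.51, adjusted p = 0.0353, limma), higher in 7 of 7 pairs. Trafd1 in experiment A was at -0.01, -0.03 and 0.62 on the MMP3 arrays, against -0.43, -0.66 and 0.32 on the controls. In experiment B it was at 0.48, 0.34, 0.84 and 1.27 on the MMP3 arrays, against -0.48, -0.33, -0.21 and 0.01 on the controls. Trafd1 was thus a small but steady difference, 0.30 to 1.26 in 7 of 7 pairs, and came to 0.76 (SE 0.14, adjusted p = 0.0320, limma). It has a second probe set, which differed by -0.02 in experiment A, and with the mean of both the difference over all arrays was 0.38 (adjusted p = 0.0332, limma).

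Higher values with MMP3 in 7 of 7 pairs were found for 11 of the 31 tested members, against 4.34% of all genes. They were Xaf1, Ifi27l2a, Bst2, Parp14, Ddx60, Lgals3bp, Mx2, Ifi35, Isg20, Trafd1 and Ly6e, the last on 1 of its 2 probe sets. With the 100K pair of experiment B left out, 15 were higher in 6 of 6 pairs, against 7.04% of all genes. The calls over all arrays depended on single arrays. When MMP3 100K of B was dropped, 6 members and 1287 genes were called, the 6 being Ifi27l2a, Trafd1, Bst2, Ddx60, Ifi35 and Ly6e. Without control 50K of B 682 genes and 3 members were called, Isg20 beside Ifi27l2a and Trafd1, and without control 250K of A 622 genes and the same 2 members. Without MMP3 100K of A the 2 were still called. Leaving out any other single array gave 0, that is the MMP3 and control arrays at 50K, MMP3 250K and control 100K of A, and in B each array apart from MMP3 100K and control 50K.

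Several strong members rest on 1 of several probe sets. Of the 34 members, 22 had more than 1 probe set, with 34 others in all, and 10 of these had the opposite sign in experiment A while 14 had a range under 1. The second probe set of Rtp4 differed by 0.00 between agents in experiment A, that of Xaf1 by -0.04, that of Parp14 by 0.01 and that of Cmpk2 by -0.02. Other members were alike on each of their probe sets, such as Ifi35 (1.74, 1.50 and 1.44), Eif2ak2 (1.80, 1.39 and 1.45) and Dtx3l (2.59 and 2.17). When all probe sets of a gene were averaged, 22 members were strong, 5 intermediate and 7 weak. All 4 probe sets of the weak member Epsti1 had ranges between 0.05 and 0.11.

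**Figure D5:**
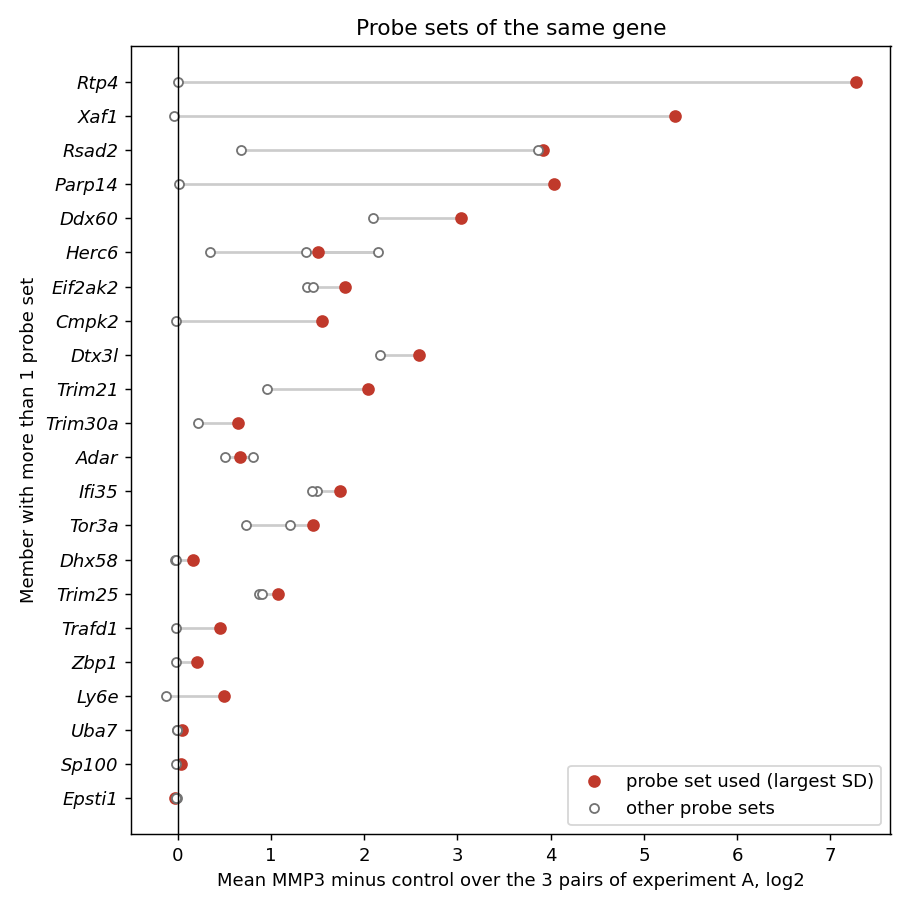
Mean MMP3 minus control over the 3 pairs of experiment A (log2, horizontal axis) for each probe set of the 22 members with more than 1, with the probe set used in red and the others as open circles. The other probe sets of Rtp4, Xaf1, Parp14 and Cmpk2 lie at 0.00, -0.04, 0.01 and -0.02, far left of the one used, while those of Ifi35, Eif2ak2 and Dtx3l lie close together.

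Most of the other tested pathway genes also rose in experiment A. Of 61 other genes listed for the pathway 53 had a probe set and 43 were tested. Of these 24 rose and 1, the feedback inhibitor Socs3, fell by 1.24, with a median of 0.59 over the 43. Among all genes tested 14.5% rose and 10.5% fell. Usp18, which removes ISG15 from its targets, rose by 6.63 (SE 0.38) and Ifit1, which binds foreign RNA, by 6.61 (SE 0.20). Usp18 was at 2.83, 4.43 and 4.11 on the MMP3 arrays of A, against -2.84, -2.84 and -2.85 on the controls. Of the transcription factors Irf9 rose by 2.58 (SE 0.32), Stat2 by 1.04 (SE 0.08) and Irf7 by 0.36 (SE 0.06), all at an adjusted p of 0.0350 or below with limma. Isg15 had no single-gene probe set and is not analysed here. The interferon gene Ifnb1 lay under the filter, with values between -0.03 and 0.03 on the 14 arrays. In experiment B 0 of the 43 passed with limma, with 4 at an unadjusted p under 0.05, and over all arrays 1 passed, Tap1 (0.83), a transporter that loads peptides onto MHC class I.

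Of 8 listed epithelial markers 4 moved with the set, and the keratins did not. Krt8 and Krt18 lay under the filter. In experiment A 4 of 6 tested, Epcam, Cdh1, Cldn4 and Ocln, were called higher with MMP3 (14.5% of all genes). Krt5 was lower (-1.03), and Krt14 differed by -0.38 and did not pass. The mean over the 6 was 0.37 to 0.57 on the MMP3 arrays and -0.54 to -0.40 on the controls. In experiment B, where 4 of these markers alternated with density as described, that mean overlapped between agents, at -1.45 to 1.12 on the MMP3 arrays and -0.41 to 0.53 on the controls. Of 4 tested macrophage and leukocyte markers 0 passed in experiment A (limma, also 0 at an unadjusted p under 0.05), with a mean of -0.03 to 0.00 on the MMP3 arrays and 0.02 to 0.45 on the controls. Of 2 tested fibroblast markers and 1 tested adipocyte marker 0 passed there, and no endothelial or dendritic marker varied enough to be tested. In experiment B 0 of these markers passed either, but 0 of all genes passed there, so that count tells nothing of the markers. At an unadjusted p under 0.05 (limma) there were 0 macrophage and leukocyte, 1 fibroblast and 0 adipocyte markers. The fibroblast marker was Pdgfra, with a difference of 1.52 (SE 0.54), higher with MMP3 in 4 of 4 pairs. The other, Dcn, differed by 0.25 (SE 0.17). The macrophage and leukocyte mean in experiment B was 0.08 to 1.12 on the MMP3 arrays and -0.04 to 0.18 on the controls. Cd68 was at 4.61 on the array that stood apart and at 1.82 on MMP3 250K. It was higher with MMP3 in 4 of 4 pairs, Csf1r in 3, Lyz2 in 2 and Cd14 in 1. The mean of the 2 fibroblast markers was 0.11 to 1.23 on the MMP3 arrays and -0.65 to 0.31 on the controls. The part of these markers in the results was not tested.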

How the data were processed

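RNA of 14 dishes was hybridised to Affymetrix mouse expression arrays from 200 ng of total RNA, extracted with phenol and chloroform, per the labels' protocols. The deposited log2 values come from RMA, a background correction, quantile normalization and probe summary; the submitters' processing notes name it without a version. The log base is not stated. All 45101 probe sets had a median of 0 over the arrays within 1e-06, a centring seen in the values and not stated. No scanner files were used, so signal over background is unknown.

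Of 45037 probe sets that are not controls, 34945 named 1 gene, 932 several and 9160 none. Genes were tested when the SD of their probe set reached the 40th percentile (0.049). Limma 3.58.1 in R 4.3.3 fitted agent, centred log2 density and their product, with experiment as a block over all arrays, and Benjamini-Hochberg adjustment over 11812 genes at 0.05. The letters A and B mark separate experiments in the labels. Deviations from the mean of the same label correlated, across genes, at 0.06 on average between arrays of 1 experiment (-0.67 to 0.65). Scripts were tested on simulated data. Alternatives changed the filter, probe set choice, centring, prior, model terms and arrays.

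By rule, values on every array were given for the 8 members with the largest range, those called over all arrays and up to 4 tested weak members (only Uba7 qualified), and of the pathway Ifit1, Usp18, Isg15, Stat2, Irf7, Irf9 and Ifnb1 were named; 1 further gene of that rule is not reported here. The array values of Lgals3bp, Mx2, Zbp1, Ifi47 and Dhx58 in experiment B and of Cmpk2, Socs3, the markers named one by one and counts without the array that stood apart were added after the values were seen. The members, the lists and the lead given to experiment A were chosen with earlier results of these data known.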

Additional observations from a re-analysis of the deposited data

Results flagged for a closer look

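In sets of 4 dishes of 1 agent in experiment B, 7 of 62 held a dish whose gap to the next was most of the whole range. A rate of about 1 in 20 holds for 4 independent draws from 1 population. Here the 4 dishes differ in density and the genes vary together on the same arrays, so that rate is no measure for this count. Among the MMP3 dishes Cmpk2 was at 2.34 at 50K, with the others between -0.14 and 0.09. Ifi47 was at 0.50 at 50K, with the others at 0.00 to 0.04. Mx1 was at 1.08 at 250K, with the others at -0.03 to 0.09. Uba7 was at 0.43 on the array labelled 100K, which stood apart, with the others at -0.02 to 0.02. Among the control dishes the 250K dish was high in 3 genes. Ifi27l2a was at 0.90 there, with the others at -1.82 to -1.74. Zbp1 was at 1.34, with the others at -0.02 to -0.01. Dhx58 was at 0.32, with the others at -0.04 to 0.02.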

How the results depend on the processing

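In experiment A the count of called genes was 2960, and 1908 with each pair of dishes as a replicate block, 1271 with no filter on variation and 0 with the spread shared over all arrays. It was 0 to 0 with an array left out. Called members were 25, 0 with shared spread and 0 with an array left out, 17 with the replicate block or with no filter, and 20 to 26 under the other settings. The sign of the effect in A held for every tested member under every setting run except Ifi47, at -0.0032 without MMP3 100K of A (-0.0032 to 0.0379 over the arrays left out). Over all arrays 325 genes and 2 members were called. With each matched pair of dishes as a replicate block these were 2 and 0, with no block for experiment 0 and 0, and with no filter 206 and 1. With an array left out genes ran from 0 to 1287 and members from 0 to 6. The difference between experiments gave 0 to 59 genes with an array left out, 59 without control 100K of B. Weak members were 7 with the mean of probe sets, and 21 of 25 promoters matched with 1 mismatch. Where the cause of such a move is not in the construction of the setting, it was not tested. Each condition had 1 array per experiment, which limits precision, and members near background cannot be told from members that did not change.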

Other observations

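Of 3 genes whose products attach ISG15, Herc6 varied strongly while Uba7 and Ube2l6 stayed within a range of 0.45 and 0.12 over the 14 arrays, and Usp18, which removes ISG15, had an SD of 3.82. Of the 2 dynamin-like GTPase genes, Mx2 had a range of 3.22 and Mx1 of 1.31, with Mx2 highest at 2.85 and Mx1 at 1.08, both on the array labelled MMP3 250K of experiment B.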
